A study of Mus musculus with 2 samples.

Results

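The genes described here encode the motors that walk along microtubules and the tubulins that microtubules are made of. They are the kinesins, the kinesin light chains, the subunits of cytoplasmic dynein and the alpha, beta, gamma, delta and epsilon tubulins. Members were chosen by gene symbol alone, and 73 of the 23284 symbols in the files met the rule. They comprise 41 kinesin genes (Kif), 4 kinesin light chain genes (Klc), 7 dynein genes (Dync), 19 tubulin genes and 2 pseudogene rows. RNA-seq libraries had been made from GFP-positive cells, which were sorted at e15.5 from the whole pancreas of mouse embryos carrying NGN3-EGFP (strain given as mixed, C57BL6). The cells were marked by a reporter named for NGN3, the product of Neurog3, which commits pancreatic cells to the endocrine fate. Whether all of them were precursors of hormone cells was not tested. The series holds 2 libraries, replicates 1 and 2 of its only group, so no comparison between conditions exists. Nothing in the labels says that they came from separate litters, and the spread between them may be technical. The labels also do not say how the reporter was built or how many embryos were pooled.

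Microtubules are hollow polymers of alpha and beta tubulin, seeded by gamma tubulin. Most kinesins move cargo toward the growing plus end of the microtubule, in endocrine cells and neurons often toward the cell surface. Cytoplasmic dynein 1 moves cargo the other way, toward the cell centre, and dynein 2 works inside the cilium. Other kinesins build and pull the spindle in dividing cells or shorten microtubules. Vertebrates hold several tubulin isotypes whose bodies are nearly alike and which differ most in the acidic tail at the carboxyl end.

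Levels are given as CPM (reads of a gene per 1000000 counted reads of the library, with a correction for library composition), and as CPM per kb of exon where genes are compared with each other. Replicate 1 held 12495143 counted reads and replicate 2 held 12043734. A count of 0 allows up to 3 counts, which is 0.241 and 0.248 CPM in replicates 1 and 2, for counting error only. Each library is a pool of cells, so fewer cells of a type and less RNA per cell cannot be told apart. The 9 endocrine markers listed for this work, Neurog3 at 736 and 551 CPM in replicates 1 and 2 among them, were at 1 CPM or more in both libraries. Among markers of neurons and neural crest, Elavl4, Ret and Snap25 reached 1 CPM in both libraries, and Prph, Chat and Foxd3 had no read in either. The 10 mesenchymal markers summed to 424 and 147 CPM in replicates 1 and 2, and the 7 endothelial markers to 15.9 and 1.16 CPM, of which Cdh5 made up 15.6 CPM in replicate 1. The 10 acinar markers, of the enzyme-secreting cells of the pancreas, had the highest sum of the lists for other cell types, at 1628 and 1232 CPM, of which Ctrb1 made up 1321 and 986 CPM.

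Some tubulin isotypes are so alike that short reads cannot always be placed, which bears on their counts below. The coding sequences of Tuba1a and Tuba1b are identical at 98.3% of bases, and Tuba1b and Tuba1c share an unbroken run of 468 bases. The first stretch below is codons 16 to 30 of the alpha tubulins. A read that lies wholly within it cannot be assigned among Tuba1a, Tuba1b and Tuba1c. Sequences are from the GENCODE M21 transcripts on GRCm38 and run 5′ to 3′ on the coding strand. Capitals mark the bases that differ from Tuba1b at the same coding position.
Tuba1a: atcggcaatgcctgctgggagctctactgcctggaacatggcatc
Tuba1b: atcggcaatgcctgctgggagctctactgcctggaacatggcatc
Tuba1c: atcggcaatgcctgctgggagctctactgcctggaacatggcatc
Tuba4a: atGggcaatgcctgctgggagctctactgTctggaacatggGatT
The 3 Tuba1 stretches lie in coding exons at chr15:98951605-98951649 (minus strand), chr15:98933109-98933153 (minus) and chr15:99034136-99034180 (plus), and that of Tuba4a at chr1:75217348-75217392 (minus).

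The beta tubulins differ more. The second stretch, from codon 430 to the last codon before the stop, encodes the carboxyl tail, where most of the isotypes differ most. Capitals mark the bases that differ from Tubb5 at the same coding position, counted without gaps, or that lie beyond its end.
Tubb5: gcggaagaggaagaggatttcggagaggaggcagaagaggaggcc
Tubb3: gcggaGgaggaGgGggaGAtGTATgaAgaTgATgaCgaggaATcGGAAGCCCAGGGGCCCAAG
Tubb4b: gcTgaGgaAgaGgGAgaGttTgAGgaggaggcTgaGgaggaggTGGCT
Tubb4a: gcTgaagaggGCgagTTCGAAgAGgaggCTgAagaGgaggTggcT
Tubb2a: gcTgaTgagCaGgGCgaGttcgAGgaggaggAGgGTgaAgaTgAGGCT
Tubb2b: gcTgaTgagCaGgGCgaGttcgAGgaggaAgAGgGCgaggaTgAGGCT
Against Tubb5, Tubb3 was identical at 82.8% of the bases before codon 430 and at 62.2% of those from there to the end of Tubb5. The bases of Tubb3 beyond that end are left out of this share. Tubb2a and Tubb2b were identical at 96.6% and 93.8%. The tail of Tubb5 lies at chr17:35834985-35835029 (minus strand) and that of Tubb3 at chr8:123421617-123421679 (plus). As a measure of what reads can resolve, 93.0% of the 25-base words of Tubb3 and 92.4% of those of Tubb5 were absent from every other gene. For Tubb4b this was 24.1%, for Tubb2a 40.7%, for Tuba1a 20.6% and for Tuba1b 12.8%. In all, 10 of the 73 members had under 50% of such words, 8 of them tubulin rows and the others Kifc1 and Kifc5b, and 48 had over 90%.

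Transcripts of most motor and tubulin genes were present. Of 73 members, 53 reached 1 CPM in both libraries, or 72.6%, against 45.7% of all symbols. A mean of at least 100 CPM was reached by 13 members, or 17.8%, against 9.99% of all symbols. Members at 1 CPM or more numbered 54 in replicate 1 alone and 59 in replicate 2 alone. The detected members were not set at high levels as a group, since 26 of 53 lay above the median of all detected genes, which was 11.3 CPM per kb. Together the 73 members took 0.468% of the reads of replicate 1 and 0.467% of those of replicate 2. No read was counted in either library for Kif2b, Kif18a, Kifc5b, Tuba3a, Tuba3b and the pseudogene row Kif4-ps. Kif20b, Kif26b, Tuba8 and the row Tubb2a-ps2 had under 10 reads over both libraries.

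**Figure D1:**
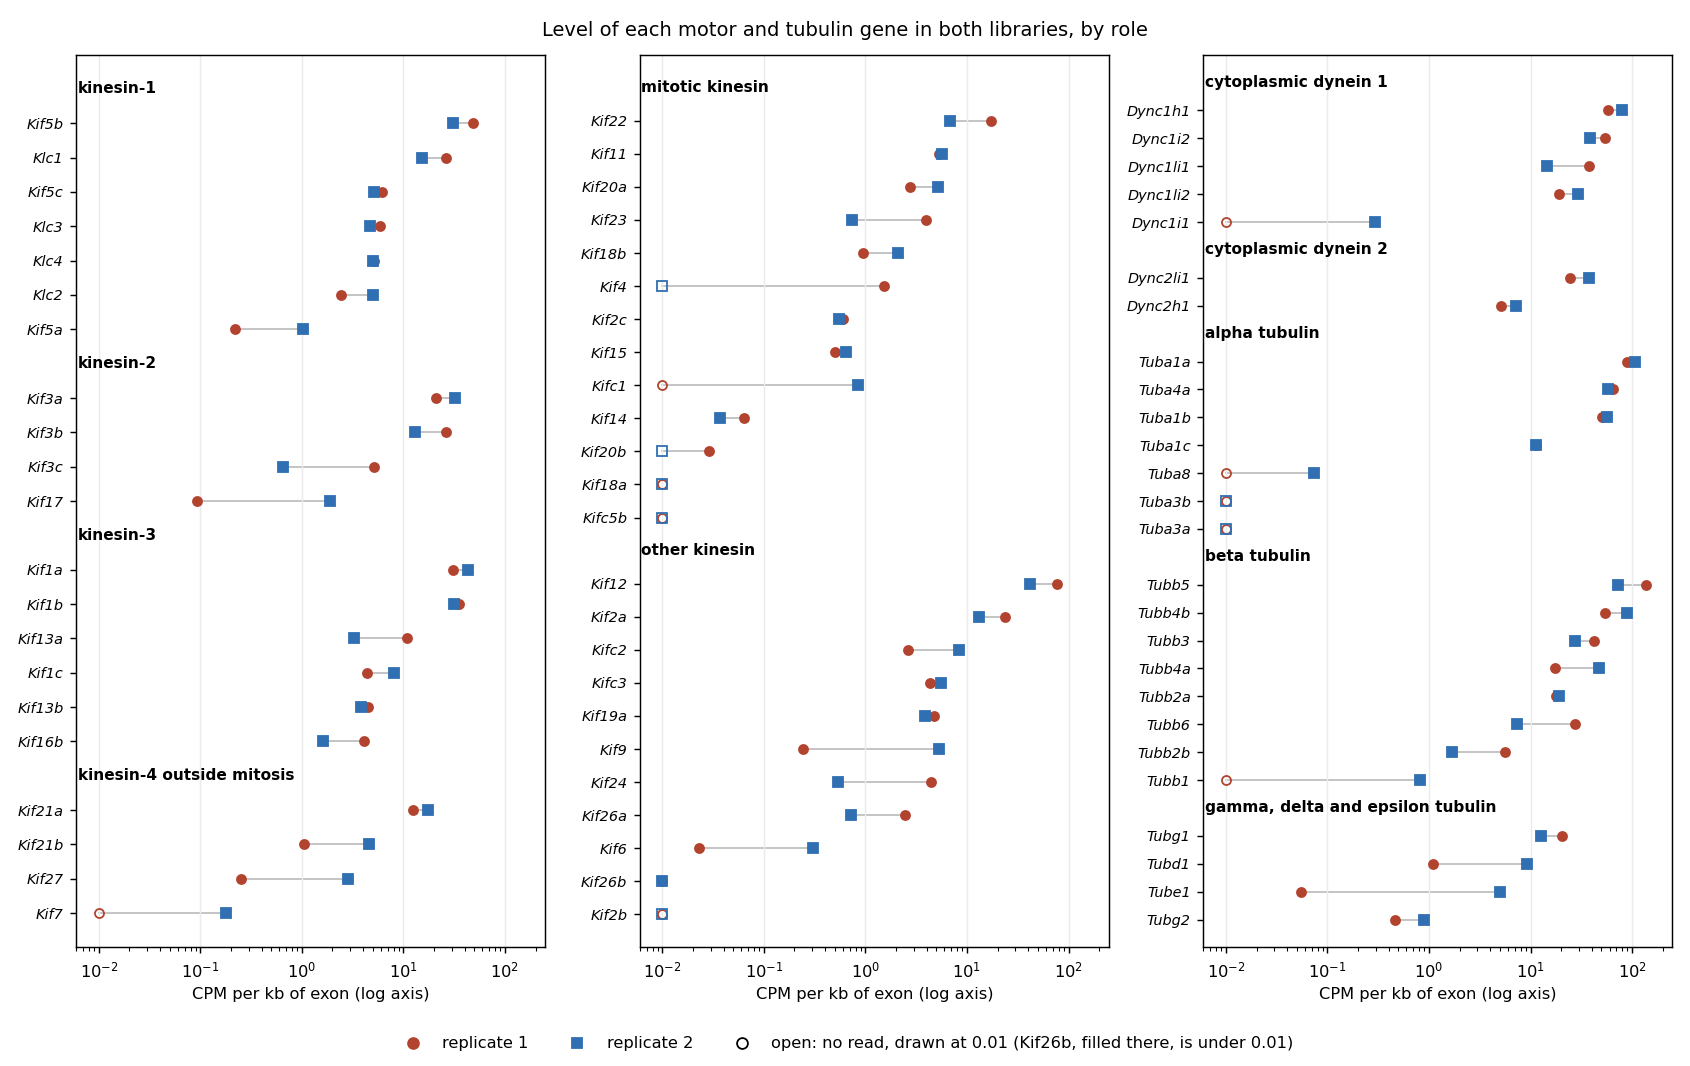
Level of every motor and tubulin gene, apart from the 2 pseudogene rows, as CPM per kb of exon on a log axis, grouped by role, with circles for replicate 1, squares for replicate 2 and open marks for genes with no read. Tubulins and dynein 1 reach the highest levels, Kif12 leads the kinesins by mean, and mitotic kinesins mostly lie under 10 CPM per kb.

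Beta tubulin transcripts were led by Tubb5 and Tubb4b, and the neuronal isotype Tubb3 was also present. Tubb5, the broadly expressed isotype, was at 364 and 190.5 CPM in replicates 1 and 2. Tubb4b, broadly expressed and also found in cilia, was at 87.3 and 142.5 CPM. The libraries gave them opposite orders, since per kb Tubb5 was above Tubb4b by 2.51-fold in replicate 1 and below it by 1.24-fold in replicate 2. If reads shared with other genes had been dropped during counting, a length limited to each gene's own words would apply, and Tubb5 would be below Tubb4b by 1.52-fold and 4.75-fold. This alternative was added after the data had been seen.

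Tubb3, whose protein is the standard antibody marker of young neurons, was at 78.5 and 51.7 CPM in replicates 1 and 2. Per kb that was 42.0 and 27.7, or 34.9 ± 10.1 (SD, n = 2), which lay above 82.6% of all detected genes by mean. It took 12.2% ± 2.44 of the beta tubulin pool (SD, n = 2), or 8.63% and 5.08% in replicates 1 and 2 with lengths limited to own words. Within each library Tubb3 was below Tubb5 per kb, by 3.27-fold and 2.60-fold in replicates 1 and 2. Tubb4a, best known from oligodendrocytes and neurons, was at 38.8 and 106 CPM, with replicate 2 clearly the higher.

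The 3 remaining beta isotypes with reads in both libraries had lower means. Tubb2a, a major isotype of brain, was at 28.5 and 31.0 CPM. Tubb2b, the near copy of Tubb2a known for its role in neuronal migration, was at 12.2 and 3.64 CPM. Tubb6 was at 48.6 and 12.9 CPM in replicates 1 and 2, in the same direction as the mesenchymal markers given above, of which 8 of 9 tested were higher in replicate 1, against 41.7% of all genes tested. The part of mesenchymal cells in the Tubb6 level was not tested. Tubb1, the isotype of platelets and their precursors, had 0 and 14 reads.

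Alpha tubulin was more even between the libraries. Tuba1a, the main isotype of developing neurons, was at 160.4 and 193 CPM in replicates 1 and 2. Tuba4a was at 184 and 164 CPM and Tuba1b, the broadly expressed isotype, at 88.4 and 99.5 CPM. The largest of the 4 differences was that of Tuba1a, a log2 ratio of replicate 1 over replicate 2 of -0.27. Tuba1c was at 22.6 and 22.3 CPM and did not differ beyond counting error (adjusted p = 0.909, exact binomial test, Benjamini-Hochberg adjusted).

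By level per kb, Tuba1a took 43.6% ± 3.33 of the alpha pool, Tuba4a 27.3% ± 3.72, Tuba1b 24.0% ± 0.690 and Tuba1c 5.06% ± 0.320 (SD, n = 2 each). The order rests on how shared reads were counted. With lengths limited to each gene's own words, Tuba1b would take 39.5% and 39.6% of the pool in replicates 1 and 2 and Tuba4a 14.3% and 11.3%. Of the exon bases of Tuba4a, 48.6% overlap Stk16, and without a stated strand setting reads of the overlap cannot be told apart. Summed over isotypes, alpha tubulin was at 216 and 233 CPM per kb and beta tubulin at 302 and 265. The ratio of alpha to beta was 0.714 in replicate 1 and 0.879 in replicate 2. Which sum is the higher also rests on how shared reads were counted. Own words made up 20.6% of Tuba1a and 12.8% of Tuba1b, but 92.4% of Tubb5 and 24.1% of Tubb4b.

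**Figure D2:**
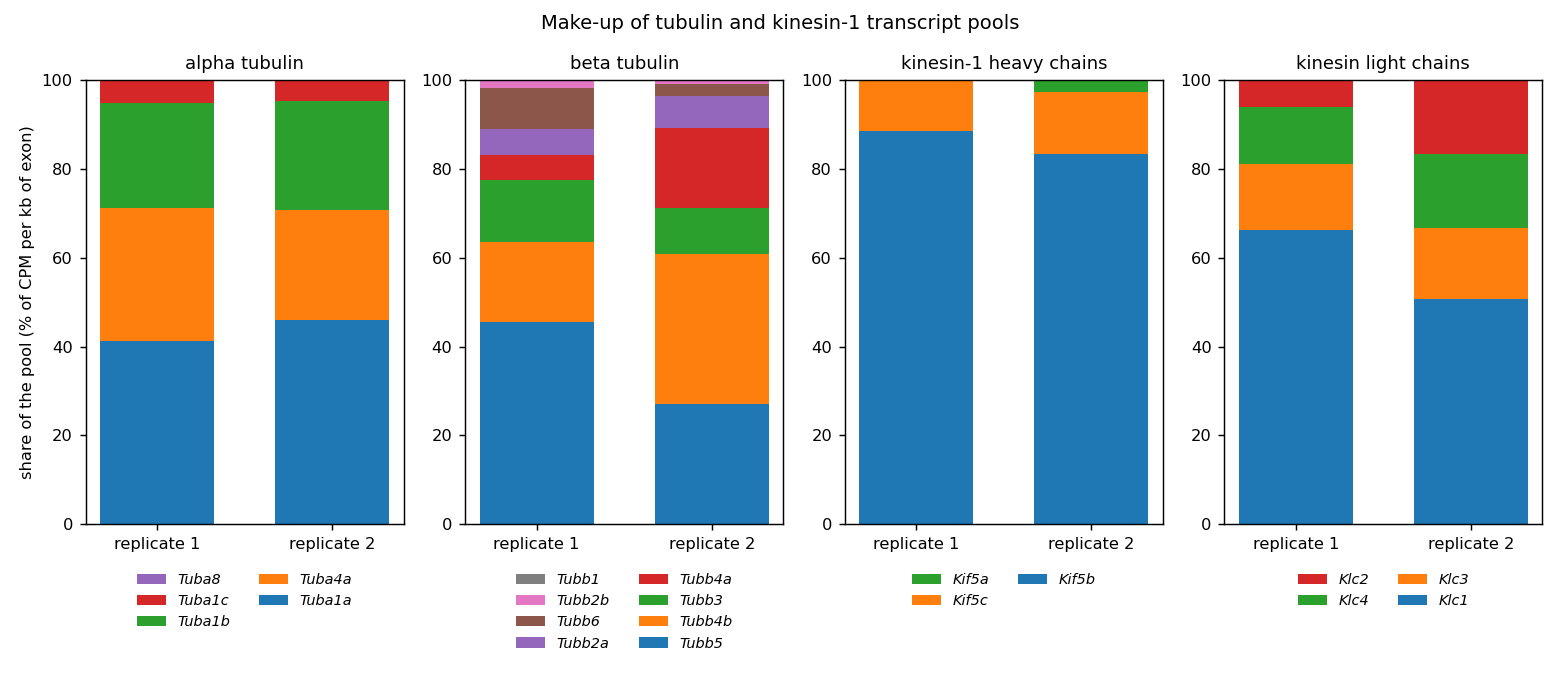
Share of each isotype or paralog in the alpha tubulin, beta tubulin, kinesin-1 heavy chain and kinesin light chain pools, in percent of the summed CPM per kb, with a bar for each library. The alpha pool and the Kif5 pool look alike in both bars, while Tubb5 takes 45.4% of the beta pool in replicate 1 and 27.1% in replicate 2.

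Of the gamma, delta and epsilon tubulins Tubg1 was the highest. Tubg1, the gamma tubulin that seeds microtubules at the centrosome, was at 36.8 and 22.7 CPM in replicates 1 and 2, while its close paralog Tubg2 was at 0.804 and 1.57 CPM. Per kb Tubg1 averaged 16.5, above 63.0% of all detected genes, and it was above Tubg2 by 44.6-fold and 14.1-fold. The delta and epsilon tubulins, which act in centriole structure, were far apart between the libraries. Tubd1 had 28 and 232 reads, or 2.25 and 19.2 CPM, and Tube1 had 2 and 176 reads, or 0.161 and 14.6 CPM. Of the 14 genes listed for tubulin folding and the gamma tubulin ring, 14 were at 1 CPM or more in both libraries. Their highest members per kb were the folding cofactors Tbca at 335 ± 85.2 and Tbcb at 54.0 ± 15.7 and the ring component Mzt1 at 52.1 ± 3.09 CPM per kb (SD, n = 2 each).

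Cytoplasmic dynein 1 was expressed with its ubiquitous subunits. Dync1h1, the motor heavy chain, had the highest CPM of the 73 members, at 836 in replicate 1 and 1137 in replicate 2. Its transcript is long, and per kb it was at 58.3 and 79.3. Dync1i2, the widely expressed intermediate chain, was at 154 and 108 CPM. Dync1i1, the intermediate chain enriched in neurons, had 0 reads in replicate 1 and 10 in replicate 2. By the limit of 3 counts in replicate 1, Dync1i2 was at least 632-fold above Dync1i1 per kb there, and in replicate 2 the ratio was 129.

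The light intermediate chains link the motor to its cargo adaptors. Dync1li1 was at 98.1 and 37.5 CPM and Dync1li2 at 89.2 and 137 CPM. Their order turned over between the libraries, with Dync1li1 above Dync1li2 per kb by 1.96-fold in replicate 1 and below it by 2.06-fold in replicate 2. Summed over both genes, however, the light intermediate chains were at 57.0 and 44.1 CPM per kb. That lies near the intermediate chains, at 54.4 and 38.4 CPM per kb, in each library. The heavy chain was close to both in replicate 1 and above both in replicate 2, by 2.06-fold and 1.80-fold.

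Around the motor, 16 of 18 genes of dynein light chains and dynactin reached 1 CPM in both libraries. Dynlrb1 and Dynll1, both light chains, were at 228 ± 80.5 and 158 ± 21.3 CPM per kb, and the dynactin subunit Dctn3 at 113 ± 44.3 (SD, n = 2 each). Of 17 dynein regulators and cargo adaptors 13 did, led by Pafah1b1 (the LIS1 protein) at 54.5 ± 8.43 CPM per kb, with the mitochondrial adaptor Trak1 next at 23.0 ± 6.11 and the hook adaptor Hook1 at 16.2 ± 1.92 (SD, n = 2 each). Between the libraries, the exact binomial test with adjustment called 6 of 16 tested light chain and dynactin genes higher in replicate 1 and 7 in replicate 2, against 41.7% and 44.1% of all genes tested. For the regulators it was 10 and 4 of 17.

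Dynein 2, the retrograde motor of the cilium, was lower than dynein 1 in its heavy chain. Dync2h1, its heavy chain, was at 74.5 and 103 CPM in replicates 1 and 2, and Dync2li1, its light intermediate chain, at 33.4 and 51.4 CPM. Dync1h1 was above Dync2h1 per kb by 11.3-fold and 11.1-fold in replicates 1 and 2. Of the 12 ratios computed between paralogs and isotypes this was the steadiest, leaving out Dync1i1 over Dync1i2, which was a limit. Dync2li1 was above Dync2h1 per kb by 4.79-fold and 5.33-fold. In replicates 1 and 2 Dync2li1 was at 24.7 and 38.0 CPM per kb, Dync1li1 at 37.7 and 14.4 and Dync1li2 at 19.3 and 29.7. Dync2li1 thus lay between the dynein 1 genes in replicate 1 and above both in replicate 2.

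Kinesin-1, the general transporter of vesicles and mitochondria, consisted mainly of Kif5b transcripts. Kif5b, the broadly expressed heavy chain, was at 294 and 185.5 CPM in replicates 1 and 2. Kif5c, a heavy chain enriched in neurons, was at 42.1 and 35.6 CPM, and Kif5a, the most strictly neuronal, at 1.53 and 7.19 CPM. Per kb Kif5b took 85.8% ± 3.72 of the heavy chain pool, Kif5c 12.6% ± 2.03 and Kif5a 1.59% ± 1.69 (SD, n = 2 each). Within each library Kif5b was above Kif5c, by 7.93-fold and 5.93-fold in replicates 1 and 2.

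The light chains bind the cargo of kinesin-1. Klc1 was at 81.3 and 47.1 CPM in replicates 1 and 2 and led the pool with 58.4% ± 10.9 per kb (SD, n = 2). Klc3 was at 12.1 and 9.75 CPM, Klc4 at 12.1 and 11.9 CPM and Klc2 at 7.80 and 15.95 CPM. Klc3 and Klc4 did not differ between the libraries beyond counting error (adjusted p = 0.0993 and 0.961, exact binomial test, Benjamini-Hochberg adjusted). Heavy chains summed to 55.1 and 37.0 CPM per kb and light chains to 39.5 and 29.8, a ratio of 1.40 in replicate 1 and 1.24 in replicate 2. Of 15 kinesin adaptors and cofactors 11 reached 1 CPM in both libraries, led per kb by the lysosomal GTPase Arl8a at 46.0 ± 20.4, the vesicle adaptor Madd at 35.5 ± 4.67 and Arl8b at 23.4 ± 6.59 CPM per kb (SD, n = 2 each). Of 14 tested, 5 were higher in each library by the exact binomial test, against 41.7% (replicate 1) and 44.1% (replicate 2) of all genes.

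Of the kinesin-3 motors Kif1b and Kif1a were abundant, and per kb the neuronal Kif1a was level with the broad Kif1b. Kif1b, which carries mitochondria and vesicle precursors, was at 523 and 473 CPM in replicates 1 and 2. Kif1a, the neuronal motor of synaptic vesicle precursors and dense-core vesicles, was at 268 and 378 CPM. Kif1a was below Kif1b per kb by 1.13-fold in replicate 1 and above it by 1.38-fold in replicate 2, so the mean ratio lay within the spread between the libraries (log2 0.15 ± 0.45, SD, n = 2). Together these 2 genes took 73.4% of the kinesin-3 pool per kb in replicate 1 and 81.8% in replicate 2. Kif1c was at 32.1 and 58.9 CPM, Kif13b at 40.0 and 34.1 CPM, Kif13a at 75.2 and 22.4 CPM and Kif16b, an early endosome motor, at 30.3 and 11.9 CPM. Per kb the means of these other members ran from 2.86 (Kif16b) to 7.11 (Kif13a), below the median of all detected genes at 11.3.

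Kinesin-2 drives transport into the cilium as a complex of Kif3a, Kif3b and the accessory protein of Kifap3. Kif3a was at 67.8 and 104 CPM and Kif3b at 147 and 73.7 CPM in replicates 1 and 2. Per kb Kif3a was below Kif3b by 1.25-fold in replicate 1 and above it by 2.47-fold in replicate 2. Kifap3 was at 12.1 and 13.3 CPM per kb. Kif3c, the variant enriched in neurons, was at 35.1 and 4.55 CPM in replicates 1 and 2, and 43.6% of its exon bases overlap 1110002L01Rik. Kif17, a homodimeric kinesin-2 of cilia and dendrites, had 4 and 79 reads.

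Among kinesin-4 genes outside mitosis Kif21a, which slows microtubule growth, was at 81.3 and 113 CPM. Its paralog Kif21b was at 9.65 and 41.4 CPM, below Kif21a per kb by 11.9-fold and 3.86-fold in replicates 1 and 2. Kif7, a regulator of Hedgehog signalling at the tip of the cilium, had 0 reads in replicate 1 and 10 in replicate 2. Kif27, the paralog of Kif7, had 16 and 178 reads. The exact binomial test called each of the 4 genes of this group higher in replicate 2, as it did 44.1% of all genes tested.

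**Figure D3:**
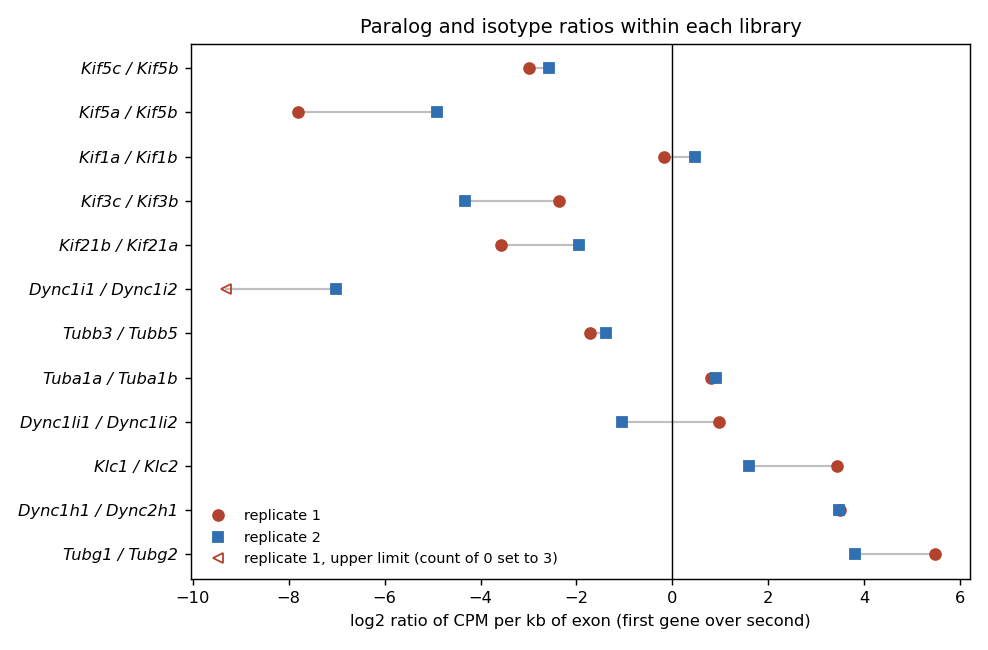
Log2 ratio of CPM per kb of the first gene over the second for 12 fixed gene pairs, with circles for replicate 1, squares for replicate 2 and an open triangle for an upper limit. The ratios kept their sign in both libraries for 10 pairs, and those of Kif1a to Kif1b and Dync1li1 to Dync1li2 did not.

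Kif12 had the highest mean level per kb of the 41 kinesin genes. This gene is known from epithelia, the kidney among them, where it modifies polycystic disease in the mouse. It was at 175 and 93.4 CPM in replicates 1 and 2, and per kb at 59.3 ± 25.4 (SD, n = 2), above 91.1% of all detected genes. Per kb it was above Kif5b in both libraries, by 1.58-fold and 1.34-fold. It was above Kif1a by 2.50-fold in replicate 1 and below it by 1.05-fold in replicate 2. All of its 25-base words (100%) were absent from other genes. The 7 duct markers, a list of other epithelial cells in the same organ, summed to 674 and 620 CPM in replicates 1 and 2. By the exact binomial test 4 of 6 tested were higher in replicate 1 and 1 in replicate 2, against 41.7% and 44.1% of all genes. The part of duct cells in the Kif12 level was not tested.

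The rest of the kinesins not listed as mitotic were lower. Kif2a, which shortens microtubules from their ends, was at 139 and 76.3 CPM in replicates 1 and 2, or 18.5 ± 7.6 CPM per kb (SD, n = 2). Kifc2 was at 9.08 and 28.9 CPM, Kifc3, a minus-end motor of epithelial cells, at 16.8 and 21.8 CPM and Kif19a, which limits the length of motile cilia in mice, at 16.2 and 13.1 CPM. Kif24, Kif26a and Kif9 had 24.8, 17.1 and 1.05 CPM in replicate 1, while the levels in replicate 2 were 2.98, 4.96 and 22.7 CPM. Kif6 had 1 and 13 reads and Kif26b 1 in each library.

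Kinesins of the spindle and of cytokinesis were at low levels. Of 13 mitotic kinesins 7 reached 1 CPM in both libraries, or 53.8%, against 45.7% of all symbols. None (0 of 13) averaged 100 CPM, against 9.99% of all symbols. Kif2a and Kif2b were not listed as mitotic. Kif2a averaged 108 CPM and Kif2b had no read, so these counts rest on how roles were assigned. Kif11, the motor that pushes the spindle poles apart, was at 25.6 and 27.2 CPM in replicates 1 and 2. Kif22, which binds chromosome arms, was at 36.3 and 14.5 CPM. Kif20a and Kif23, which act in cytokinesis, had 11.0 and 13.5 CPM in replicate 1, and 20.7 and 2.48 CPM in replicate 2. Of the exon bases of Kif20a, 31.8% overlap Cdc23.

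Kif18b, a depolymerising motor at microtubule plus ends, was at 3.14 and 6.94 CPM. Kif15 and Kif2c had 2.41 and 1.93 CPM in replicate 1, while replicate 2 gave 3.14 and 1.74 CPM, and Kif14 had 7 and 4 reads. Kif4 had 95 reads in replicate 1 and 0 in replicate 2, which by the limit of 3 counts is at least 30.8-fold higher in replicate 1. Kifc1 went the other way, with 0 and 24 reads, at least 8.23-fold higher in replicate 2. Of the 25-base words of Kifc1, 29.2% were absent from other genes, and its near copy Kifc5b had no read.

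Set side by side, the 13 heavy chains of transport kinesins had a median of 6.14 CPM per kb in replicate 1 and 5.18 in replicate 2. The 13 mitotic kinesins had medians of 0.606 and 0.647 CPM per kb. The difference of medians was 3.08 ± 0.21 on the log2 scale (SD, n = 2), with a prior count of 2. It was 1.95 when the 5 mitotic kinesins with no read in at least 1 library were left out, an alternative added after the data had been seen. The 18 mitotic genes listed from outside the kinesin family had medians of 2.18 and 2.09 CPM per kb, below the transport motors and above the mitotic kinesins in each library. Of these, 13 reached 1 CPM in both libraries, led per kb by Top2a at 10.1 ± 3.66, Ccnb1 at 5.80 ± 0.117 and Ccnb2 at 5.29 ± 1.21 (SD, n = 2 each). By the exact binomial test 8 of 17 tested were higher in replicate 1 and 6 in replicate 2, against 41.7% and 44.1% of all genes. With 2 libraries no exact permutation test of an order can give a p below 0.5, so these orders are descriptions.

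**Figure D4:**
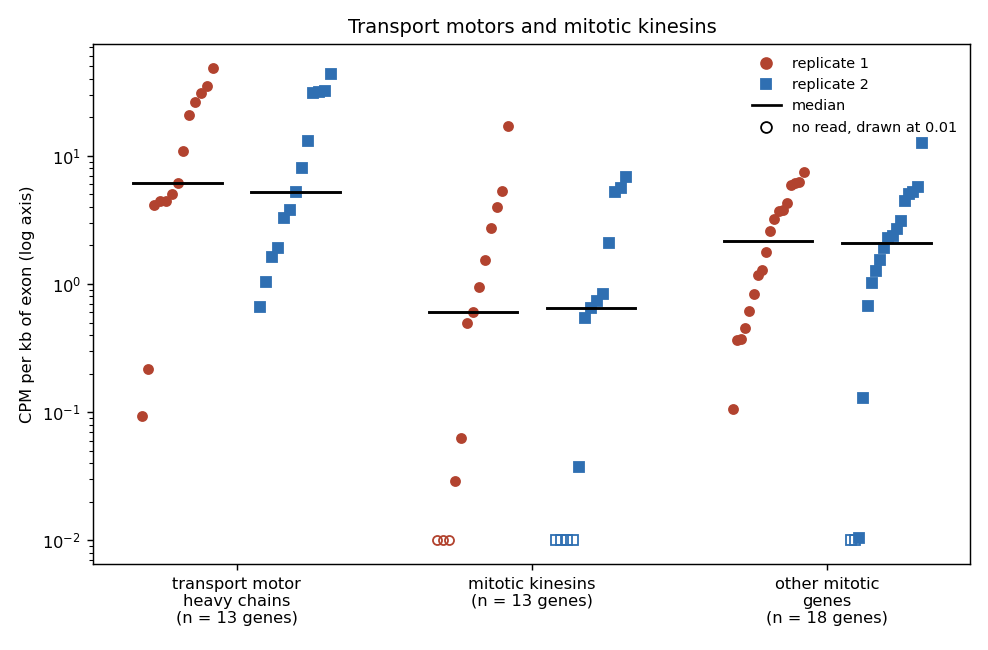
Level of single genes as CPM per kb on a log axis for 13 transport motor heavy chains, 13 mitotic kinesins and 18 mitotic genes outside the kinesin family, with circles for replicate 1, squares for replicate 2 a line at each median and open marks for genes with no read. Medians of the transport motors are 6.14 and 5.18 and those of the mitotic kinesins 0.606 and 0.647, with overlap of single genes.

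Between the libraries the motor and tubulin genes varied about as much as other genes of like level. In the two-sided exact binomial test (adjusted after Benjamini and Hochberg), 53 of the 63 members with at least 10 reads differed beyond counting error, or 84.1%, against 85.8% of the 13416 genes tested. Of these, 24 were higher in replicate 1 and 29 in replicate 2, against 41.7% and 44.1% of all genes tested. The test compares these 2 libraries, not conditions. Over 2-fold differences were found for 27 members, or 42.9%, against 48.2% of all genes tested. By level, 8 of 11 members from 1 to 10 CPM and 14 of 33 from 10 to 100 CPM differed over 2-fold, which is 72.7% and 42.4%, against 74.0% and 42.9% of all genes in those ranges. From 100 to 1000 CPM 0 of 13 members did, against 12.2% of all genes. Of these members Kif3b, at a log2 ratio of 0.998, lay just under the limit. The SD between the libraries on the log2 scale, pooled over genes in this range, was 0.463 for members and 0.467 for all genes.

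Among members averaging 50 CPM or more, replicate 1 exceeded replicate 2 most for Dync1li1, with a log2 ratio of replicate 1 over replicate 2 of 1.38, Kif3b at 0.998, Tubb5 at 0.93, Kif12 at 0.90 and Kif2a at 0.86. Replicate 2 exceeded replicate 1 most for Tubb4a at -1.44, Tubb4b at -0.71, Kif3a at -0.62, Dync1li2 at -0.62 and Kif1a at -0.49. Neither direction held 1 class of motor, since dynein subunits, kinesins and beta tubulins stood on each side. The widest gaps lay among scarce genes and were chosen after their values had been seen. For Kif9 the 95% interval of the level (Clopper-Pearson) ran from 0.556 to 1.79 CPM in the first library and from 20.0 to 25.5 CPM in the second. For Tube1 the intervals were 0.0195 to 0.581 CPM and 12.5 to 16.9 CPM. Only counting error enters these intervals, because each was computed from the reads of a single library. The spread between libraries does not enter them.

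**Figure D5:**
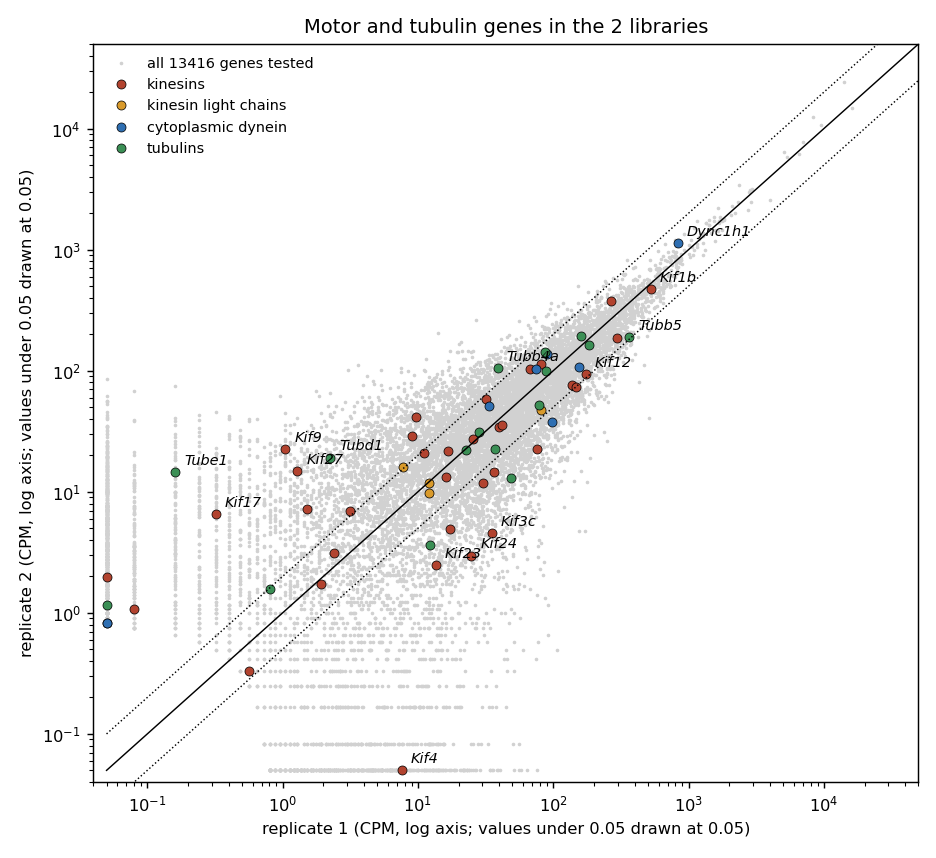
CPM in replicate 1 against CPM in replicate 2 on log axes for all 13416 genes tested in grey and for the 63 tested motor and tubulin genes in colour by family, with a solid line at equal levels and dotted lines at 2-fold. Members above 100 CPM, such as Dync1h1 and Kif1b, lie within the dotted lines, and scarce members such as Tube1, Kif9 and Kif4 lie far outside.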

How the data were processed

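RNA-seq of 2 samples of sorted cells was analysed. Each deposited file lists whole-number read counts by gene symbol for 1 sample, not normalized. Per the submitters' processing notes the tools included TopHat2 2.0.4 and Cufflinks 2.0.2, besides cutadapt, FastQC and DESeq, on mouse build mm9, without roles or order. The counting program, annotation, strand setting and treatment of reads that map to several genes are not given in the sources used, so counts of near-identical, overlapping and antisense genes are uncertain.

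Counts were scaled to CPM with TMM factors (0.996 and 1.004) from edgeR 4.0.16 in R 4.3.3. Detection was 1 CPM or more in both libraries. Exon lengths and 25-base words came from GENCODE M21 basic transcripts, which matched 22791 symbols, or 97.9%. Its build, GRCm38, differs from mm9, so coordinates are given only for sequences read from it. Log2 ratios are replicate 1 over replicate 2 with a prior count of 2. Genes whose reads summed to 10 or more were compared between the libraries by exact binomial test (two-sided, scaled totals) in scipy 1.17.1. Benjamini-Hochberg adjustment was applied at 0.05. The test was tried on simulated counts that held counting error only, so that trial does not cover other spread between libraries.

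Members, roles and lists were chosen with earlier results of these data known. Values are given for detected tubulin, dynein, kinesin-1 and paired genes, for the 5 highest members of each other role per kb, and for the 5 largest log2 ratios in each direction at a mean of 50 CPM or more. The other genes named were chosen after their values were seen. Alternatives were other scalings (column totals, DESeq2 1.42.0 size factors, totals without Rn45s or without the 10 most abundant genes), other limits, filters and prior counts, other lengths, and leaving out each replicate. Lengths limited to a gene's own 25-base words, and the mitotic kinesins with reads in both libraries, were added after the data were seen. Some markers of neurons and neural crest, and the sum over that list, are not reported here.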

Additional observations from a re-analysis of the deposited data

How the results depend on the processing

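No paired analysis was possible because the series holds 1 group. The number of members detected was 53 under each of the 4 other scalings, 54 and 41 at limits of 0.5 and 5 CPM and 54 to 59 when a replicate was left out. The number differing between the libraries was 53 with no filter on counts and under each other scaling, 46 with at least 100 reads, and 27 if they also had to differ 2-fold. The count over 2-fold was 20 to 29. With the full annotation the log2 ratio per kb was -2.43 for Kif5c over Kif5b, -1.21 for Tubb3 over Tubb5, 0.96 for Tuba1a over Tuba1b and 3.54 for Dync1h1 over Dync2h1. Without length correction it was -2.05 for Tubb3 over Tubb5 and -0.64 for Kif1a over Kif1b, which turned round from 0.15. With own words only it was 0.17 for Tuba1a over Tuba1b and 3.53 for Dync1h1 over Dync2h1. Leaving out a replicate gave -0.17 to 0.47 for Kif1a over Kif1b and -1.04 to 0.97 for Dync1li1 over Dync1li2, whose mean was -0.04. The transport motors lay above the mitotic kinesins by 4.05 without length correction, 3.76 with the full annotation, 2.47 with members of at least 10 reads only and 1.95 with mitotic kinesins that had reads in both libraries. The last 2 leave out mitotic kinesins with few reads or with none in a library, and the first 2 change only the lengths. Dync1i1 over Dync1i2 was given as a limit and has no alternative value. At 10 to 100 CPM, 42.4% of members differed over 2-fold between the libraries, which limits what a single gene's level shows.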

Other observations

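Other proteins that bind microtubules were present at levels like those of the tubulins. Of 17 microtubule-associated genes listed, 13 reached 1 CPM in both libraries, and of 17 tested 8 were higher in each library by the exact binomial test with adjustment, against 41.7% (replicate 1) and 44.1% (replicate 2) of all genes tested. Mtap1b, which encodes the growth-cone protein MAP1B, was at 1668 and 1740.0 CPM in replicates 1 and 2, or 120 ± 3.59 CPM per kb (SD, n = 2). Mapre3 and Mapre2, which encode proteins that track growing plus ends, were at 113 ± 39.5 and 30.9 ± 3.71 CPM per kb. Dcx (doublecortin), a protein of migrating neurons, was at 184 and 192 CPM. The stathmins of neurons were scarce, with Stmn2 at 1 and 23 reads and Stmn4 at 1 and 12 reads. Dcx and the stathmins were chosen after their values were seen.

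Enzymes that modify tubulin were detected for 16 of 21 genes, and of 18 tested the exact binomial test called 7 higher in replicate 1 and 6 in replicate 2, against the same shares of all genes. The deacetylases Hdac6 and Sirt2 were at 30.0 ± 8.12 and 20.5 ± 5.50 CPM per kb, and the acetyltransferase Atat1 at 15.6 ± 0.300 (SD, n = 2 each). The glutamylases Ttll6 and Ttll9 had no read in either library. The other Ttll genes of the list had reads in both, with means from 0.614 CPM (Ttll11) to 114 CPM (Ttll7).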
